A study of Homo sapiens with 12 samples.

Results

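Lipid droplets store triglyceride and cholesteryl ester in a core that a single layer of phospholipid and a coat of proteins enclose. Perilipins coat the surface and limit the access of lipases, CIDE proteins exchange lipid between droplets in contact, and adipose triglyceride lipase with its coactivator ABHD5 starts the breakdown of stored triglyceride. In hepatocytes, PLIN2 is the main coat protein, and the balance of fatty acid uptake, storage and lipolysis is known to set how much fat the cell holds. The genes described here are 10 members of that system, taken by gene symbol from the count table of 26485 genes: the coat proteins PLIN2 and PLIN3, the CIDE proteins CIDEB and CIDEC, the lipase PNPLA2 with its coactivator ABHD5 and its inhibitor HILPDA, the droplet-associated dehydrogenase HSD17B11, the phospholipase PLA2G16 and the fatty acid receptor CD36. They were chosen by their behaviour in these same data, PLA2G16 being higher and CD36 lower in the lines labelled as depleted of ZHX3. Comparisons of members with the control line are therefore given as descriptions, without p-values. Where members past the adjusted p threshold of the main test are counted, the share of all genes past it is printed beside them.

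RNA was sequenced from HepG2, an established human hepatoma line that retains many hepatocyte functions. A stable line named Empty (genotype label WT) received an empty CRISPR construct, and 3 further lines (genotype label ZHX3-depleted) received the guide constructs sgZHX3-2 (line Z2), sgZHX3-5 (line Z5) and sgZHX3-9 (line Z9). All 4 lines were transfected with lipofectamine 2000, selected with blasticidin from 48 h and grown in low-glucose DMEM with serum, and 3 wells (a, b and c) of each were sequenced. The wells are the replicates (n = 3 per line), so each error or p-value reflects well-to-well spread, not how much separately derived lines would vary. Whether each line is a clone or a pool is not given in the sources used here, and with 1 control line the constructs and the history of Empty cannot be told apart.

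Library totals ranged from 50864744 to 65428204 counts, and 15289 genes passed the filter on low counts. The wells of Z2 were the least even: the chi-square of their counts, divided by its degrees of freedom, was 43.0 between wells a and b and 30.2 between b and c, against 6.01 to 19.5 between wells of the other lines. ZHX3, the labelled target, was at 33.0 ± 0.421 CPM (counts per 1000000 counts of the library, mean ± SD) in Empty, while Z2, Z5 and Z9 had 34.5 ± 0.620, 32.9 ± 0.505 and 34.3 ± 0.713 CPM. Its RNA level thus gave no check of the labels, and the 3 lines are called ZHX3-labelled below. All 10 hepatocyte markers of the list were detected, with a summed level of 65181 to 66794 CPM in Empty and 58491 to 65524 CPM over the 9 ZHX3-labelled wells. The sum hides changes in both directions: for the mean of the 3 lines, edgeR called 3 markers higher and 2 lower at an adjusted p under 0.05. Of all genes, 13.0% were called higher and 12.6% lower. ALB was at 17529 ± 797 CPM in Empty and 11517 ± 790, 11480 ± 635 and 11974 ± 496 CPM in Z2, Z5 and Z9. SERPINA1 was at 8730 ± 527 CPM in Empty and 10936 ± 1214, 10723 ± 581 and 10086 ± 529 CPM in the 3 lines. Of the 10 members, 9 passed the filter and CIDEB did not.

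PLA2G16 had the largest difference of the members, near 1.8 CPM in Empty and near 9 CPM in each ZHX3-labelled line. CD36 lay lower in all 9 ZHX3-labelled wells than in any Empty well, as did PLIN3 by a smaller margin, and HSD17B11 lay higher in all 9. PNPLA2 was slightly higher, whereas PLIN2, CIDEC, HILPDA and ABHD5 overlapped between Empty and the other lines. In bulk RNA, fewer cells expressing a gene and less RNA per cell cannot be told apart.

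**Figure D1:**
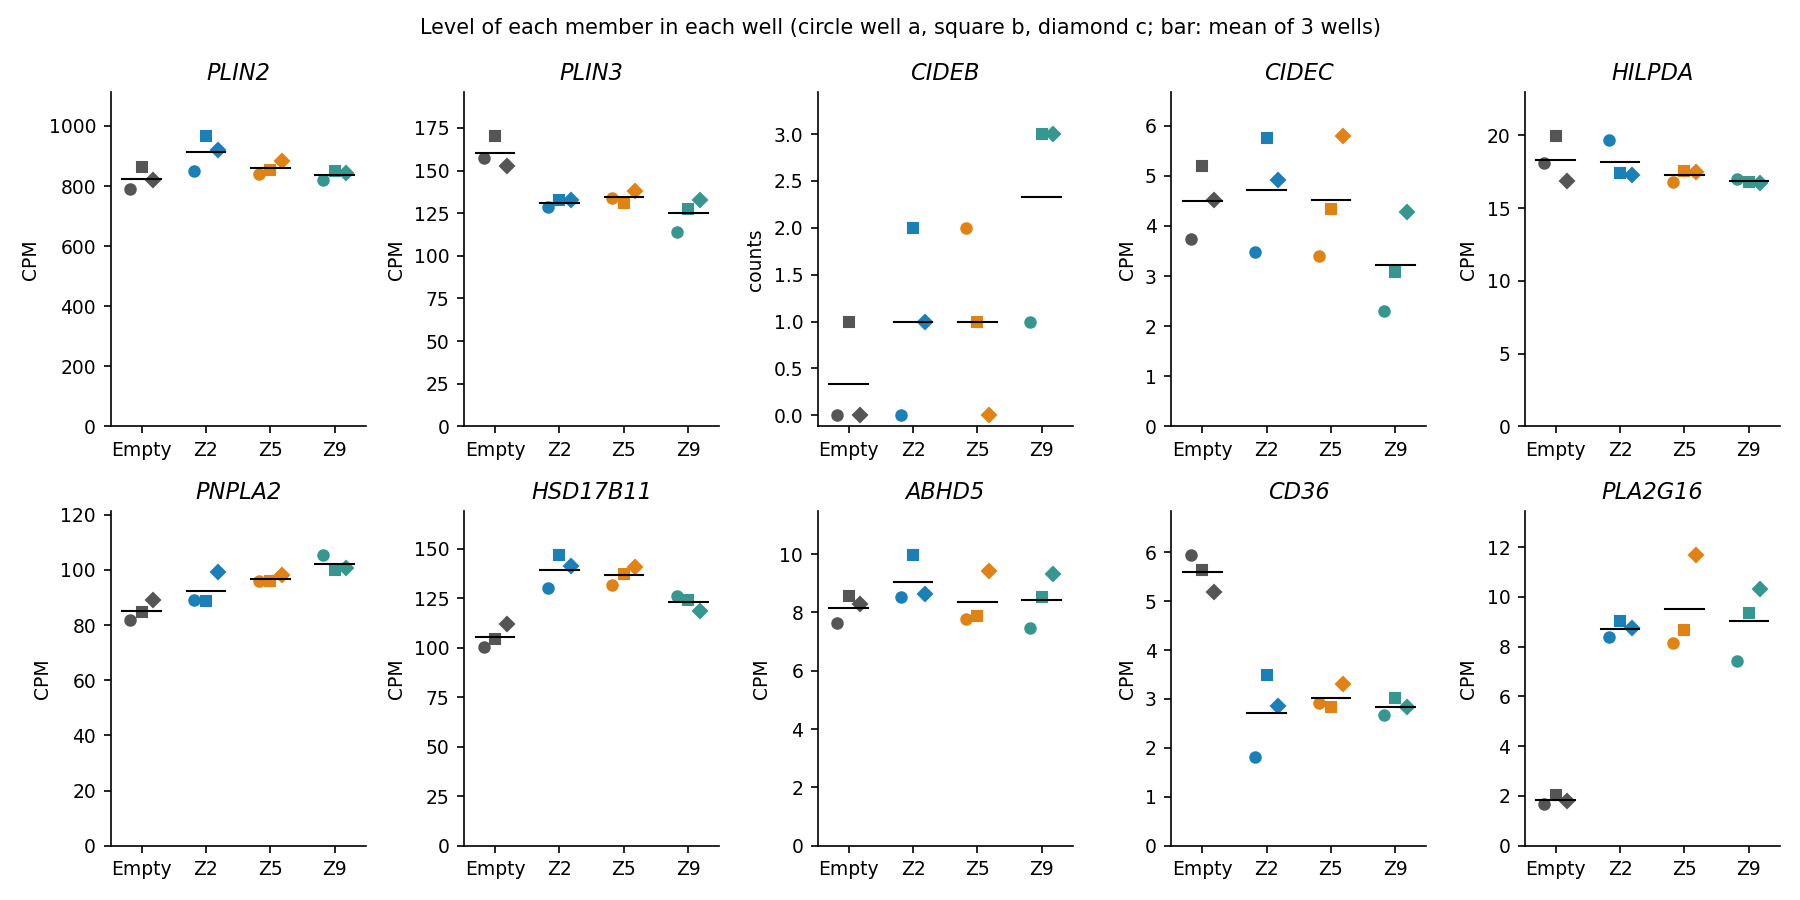
Level of each member in each of the 12 wells, in CPM (raw counts for CIDEB), by line; symbols mark wells a, b and c and the bar is the mean of 3 wells. PLA2G16 sits at 1.69 to 2.03 CPM in Empty and at 7.41 to 11.7 CPM elsewhere, and CD36 at 5.19 to 5.95 CPM in Empty and at 1.80 to 3.50 CPM elsewhere.

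The 250 bases before the RefSeq start (GRCh38.p14) are shown for the 4 members whose Empty wells and ZHX3-labelled wells did not overlap, since these are the members that differed together. Capitals mark a CCAAT box, the sequence bound by NF-Y, written CCAAT or ATTGG on the opposite strand. PLA2G16 (current symbol PLAAT3) is at chr11:63614434-63614683 on the minus strand, CD36 at chr7:80646196-80646445 on the plus strand, PLIN3 at chr19:4867668-4867917 on the minus strand and HSD17B11 at chr4:87391189-87391438 on the minus strand.
PLA2G16: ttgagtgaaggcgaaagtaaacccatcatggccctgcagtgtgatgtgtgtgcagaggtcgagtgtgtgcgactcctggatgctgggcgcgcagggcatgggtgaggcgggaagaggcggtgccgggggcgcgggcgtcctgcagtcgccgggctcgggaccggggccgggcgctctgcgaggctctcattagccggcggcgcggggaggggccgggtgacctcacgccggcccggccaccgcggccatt
CD36: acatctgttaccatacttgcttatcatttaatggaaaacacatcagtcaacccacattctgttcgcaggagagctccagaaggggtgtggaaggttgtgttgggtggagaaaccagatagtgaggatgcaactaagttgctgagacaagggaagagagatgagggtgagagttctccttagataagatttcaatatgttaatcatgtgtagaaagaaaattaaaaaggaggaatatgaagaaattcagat
PLIN3: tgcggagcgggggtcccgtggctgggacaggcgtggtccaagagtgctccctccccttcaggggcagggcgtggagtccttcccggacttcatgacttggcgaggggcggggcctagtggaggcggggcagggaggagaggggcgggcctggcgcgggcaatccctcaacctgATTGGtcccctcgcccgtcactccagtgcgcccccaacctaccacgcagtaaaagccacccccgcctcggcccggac
HSD17B11: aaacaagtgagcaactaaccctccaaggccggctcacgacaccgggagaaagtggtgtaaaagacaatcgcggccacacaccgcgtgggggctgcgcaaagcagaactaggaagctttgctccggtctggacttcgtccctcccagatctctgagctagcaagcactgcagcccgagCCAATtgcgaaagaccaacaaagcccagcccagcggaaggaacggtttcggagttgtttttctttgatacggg
The windows of PLIN3, which was lower, and HSD17B11, which was higher, each hold 1 CCAAT box, starting 77 and 73 bases before the start. Those of PLA2G16 and CD36 hold none of the 4 motifs searched on both strands. Of the 9 members with a RefSeq promoter entry (all but HILPDA), 3 held a CCAAT box (CIDEB was the other), against 32.7% of 27305 promoters. TATAAA occurred in 1 of the 9, PLIN2, and in 11.4% of promoters. ACGTG, the core of the hypoxia response element, also occurred in PLIN2 alone of the 9 searched and in 18.3% of promoters. The half-site AGGTCA repeated after 1 base, the direct repeat that PPAR and RXR bind, occurred in 0 of the 9 and in 0.0183% of promoters. A match describes these letters and not a bound site. CD36 and PLA2G16 have other annotated starts, which were not searched.

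PLIN2, the perilipin that coats droplets in most cells outside fat tissue, lies at chr9:19108375-19149290 (minus strand; gene positions here and below are from GENCODE 29 on GRCh38). It was at 789, 863 and 820 CPM in Empty wells a, b and c, at 851, 968 and 919 CPM in Z2, at 840, 854 and 884 CPM in Z5 and at 821, 851 and 843 CPM in Z9. The Z2 wells were the highest as a group, but the lowest of them lay within the Empty range, as did 2 wells of Z5 and all 3 of Z9. The log2 difference from Empty was 0.15 (SE 0.056) in Z2, 0.061 (SE 0.056) in Z5 and 0.024 (SE 0.056) in Z9.

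PLIN3, a perilipin that moves between the cytosol and young droplets, lies at chr19:4838341-4867768 on the minus strand. Its level was 157, 170 and 153 CPM in the Empty wells, 128, 133 and 132 CPM in Z2, 134, 131 and 138 CPM in Z5 and 114, 127 and 133 CPM in Z9. Every Empty well lay above every other well. The log2 difference from Empty was -0.29 (SE 0.058) in Z2, -0.26 (SE 0.058) in Z5 and -0.36 (SE 0.058) in Z9, and the mean of the 3 lines stood at 0.812 times Empty. Of its exonic bases, 17.8% are shared with AC027319.1 on the opposite strand, and the strand setting of the counting is not given in the sources used here.

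CIDEC, which promotes the growth of large droplets and is best known from fat cells, lies at chr3:9866711-9880254 on the minus strand. It was at 3.75, 5.20 and 4.52 CPM in Empty, at 3.48, 5.76 and 4.91 CPM in Z2, at 3.39, 4.34 and 5.80 CPM in Z5 and at 2.31, 3.08 and 4.28 CPM in Z9. The wells of each line were spread widely, with a mean within-line coefficient of variation of 24.6% against 3.75% for PNPLA2, and all lines overlapped. The 6 adipocyte markers of the list summed to 0.263 to 0.759 CPM over the 12 libraries. FABP4 had 0 counts in all of them, and ADIPOQ, LEP and LPL had 0 to 4 counts per line.

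CIDEB, the CIDE protein of hepatocytes and of very-low-density lipoprotein assembly, lies at chr14:24305096-24311430 on the minus strand. Summed over 3 wells it had 1 count in Empty, while Z2, Z5 and Z9 had 3, 3 and 7 counts, and no well had more than 3. These counts are too few for a fold. All 3198 of its exonic bases in GENCODE 29 are shared with genes on the opposite strand, NOP9 (1954 bases) and LTB4R2 (1276 bases). NOP9 was at 80.6 to 106 CPM and LTB4R2 at 2.26 to 3.69 CPM, and how reads in shared exons were assigned is not given in the sources used here. The count of CIDEB is given as deposited and is not read as its RNA level.

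PNPLA2, the gene of adipose triglyceride lipase, lies at chr11:818902-825573 on the plus strand and was at 81.7, 84.6 and 89.1 CPM in Empty. Its level was 89.3, 88.7 and 99.1 CPM in Z2, 95.9, 96.1 and 98.1 CPM in Z5 and 105, 99.9 and 101 CPM in Z9. Z2 well b lay just below the highest Empty well, and the wells of Z5 and Z9 were all above Empty. The log2 difference from Empty was 0.12 (SE 0.054) in Z2, 0.18 (SE 0.054) in Z5 and 0.26 (SE 0.054) in Z9.

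ABHD5, the protein that activates this lipase once released from perilipin, lies at chr3:43690108-43734371 on the plus strand. It was at 7.63, 8.56 and 8.29 CPM in Empty, at 8.51, 9.97 and 8.64 CPM in Z2, at 7.76, 7.87 and 9.43 CPM in Z5 and at 7.47, 8.54 and 9.30 CPM in Z9. The lines overlapped, and the lowest of all wells was in Z9. HILPDA, a hypoxia-induced inhibitor of the lipase, lies at chr7:128455849-128458418 on the plus strand. Its level was 18.1, 20.0 and 16.9 CPM in Empty, 19.7, 17.4 and 17.3 CPM in Z2, 16.8, 17.5 and 17.5 CPM in Z5 and 17.0, 16.8 and 16.7 CPM in Z9. Empty held the highest well of all and another that lay below every Z2 well, so the lines again overlapped. The mean of the 3 lines differed from Empty by 0.076 (SE 0.086) for ABHD5 and by -0.074 (SE 0.060) for HILPDA on the log2 scale.

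HSD17B11, a short-chain dehydrogenase anchored in the endoplasmic reticulum and on droplets, lies at chr4:87336610-87391386 on the minus strand. It was at 101, 104 and 112 CPM in Empty, at 130, 147 and 141 CPM in Z2, at 131.5, 137 and 141 CPM in Z5 and at 126, 124 and 118 CPM in Z9. All 9 ZHX3-labelled wells lay above the 3 Empty wells, those of Z9 by the smallest margin. The log2 difference from Empty was 0.40 (SE 0.057) in Z2, 0.37 (SE 0.057) in Z5 and 0.22 (SE 0.057) in Z9. Its close relative HSD17B13, a droplet protein of hepatocytes encoded next to it, had 28 counts over the Empty wells and 43, 44 and 46 over the wells of Z2, Z5 and Z9, and its difference missed the threshold (log2 0.75, SE 0.33, edgeR adjusted p = 0.108 for the mean of the 3 lines).

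CD36, a membrane receptor that takes up long-chain fatty acids and oxidised lipoprotein, lies at chr7:80369575-80679277 on the plus strand. It was at 5.95, 5.63 and 5.19 CPM in Empty, at 1.80, 3.50 and 2.86 CPM in Z2, at 2.91, 2.84 and 3.30 CPM in Z5 and at 2.67, 3.02 and 2.84 CPM in Z9, from 96 to 339 counts per well. The 9 ZHX3-labelled wells were all below the 3 Empty wells, and Z2 held both the lowest and the highest of the 9. The log2 difference from Empty was -1.04 (SE 0.17) in Z2, -0.89 (SE 0.16) in Z5 and -0.97 (SE 0.16) in Z9, or 0.512 times Empty for the mean of the 3 lines.

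CD36 is also known from macrophages, endothelium and fat cells. Of the macrophage markers, MSR1 and MARCO had 0 counts in every library and PTPRC had 3 counts, all in Z5. CD68 was at 46.7 ± 5.26 CPM in Empty and 61.1 ± 11.6, 56.6 ± 6.46 and 56.0 ± 8.77 CPM in Z2, Z5 and Z9. CD14 was at 1.01 ± 0.0939 CPM in Empty and 1.31 ± 0.396, 1.26 ± 0.394 and 0.769 ± 0.0826 CPM in the 3 lines. CSF1R had 21 counts in Empty and 9, 20 and 10 in Z2, Z5 and Z9. For the mean of the 3 lines, edgeR called 0 of the 3 tested markers. In each of Z9 minus Empty, Z9 minus Z2 and Z9 minus Z5, it called 1 of the 3, lower in Z9. Of all genes, 19.2%, 5.17% and 1.52% were called there in either direction. LYZ was at 1876 ± 90.4 CPM in Empty and 1929 ± 90.8, 2038 ± 61.5 and 1631 ± 76.9 CPM in Z2, Z5 and Z9. The 7 summed to 1820 to 1999 CPM in Empty and 1591 to 2163 CPM in the ZHX3-labelled wells, nearly all of it LYZ. Of the endothelial markers, KDR had 0 counts, and the 5 summed to 6.22 to 6.39 CPM in Empty and 6.64 to 8.57 CPM in the other wells. CDH5, in that list, had 0.485 ± 0.201 CPM in Empty and rose to 1.67 ± 0.631, 1.63 ± 0.206 and 1.32 ± 0.190 CPM in Z2, Z5 and Z9 (edgeR adjusted p = 0.000176 for the mean of the 3 lines). VWF and PECAM1, of the same list, were not called: VWF had 0.694 ± 0.155 CPM in Empty and 0.562 ± 0.210, 0.508 ± 0.0228 and 0.595 ± 0.0841 CPM in Z2, Z5 and Z9, and PECAM1 had 5.11 ± 0.0787 CPM against 5.68 ± 0.232, 4.64 ± 0.161 and 5.80 ± 0.756 CPM. Every library is labelled HepG2, and whether any other cells contributed to the CD36 values was not tested.

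PLA2G16, a small phospholipase A of the PLAAT family that is abundant in fat tissue, lies at chr11:63573195-63616883 on the minus strand. It was at 1.69, 2.03 and 1.79 CPM in Empty (86 to 117 counts per well), at 8.38, 9.05 and 8.75 CPM in Z2, at 8.14, 8.67 and 11.7 CPM in Z5 and at 7.41, 9.37 and 10.3 CPM in Z9 (402 to 667 counts). The lowest ZHX3-labelled well, Z9 a, lay far above the highest Empty well, and the 3 lines overlapped one another. The log2 difference from Empty was 2.25 (SE 0.16) in Z2, 2.37 (SE 0.15) in Z5 and 2.30 (SE 0.15) in Z9, a level of 4.74, 5.17 and 4.91 times Empty. None of its exonic bases is shared with another gene. The other PLAAT genes were scarcely counted: HRASLS and HRASLS5 had 0 counts in every library, HRASLS2 had 5 to 19 and RARRES3 11 to 20 counts per line.

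**Figure D2:**
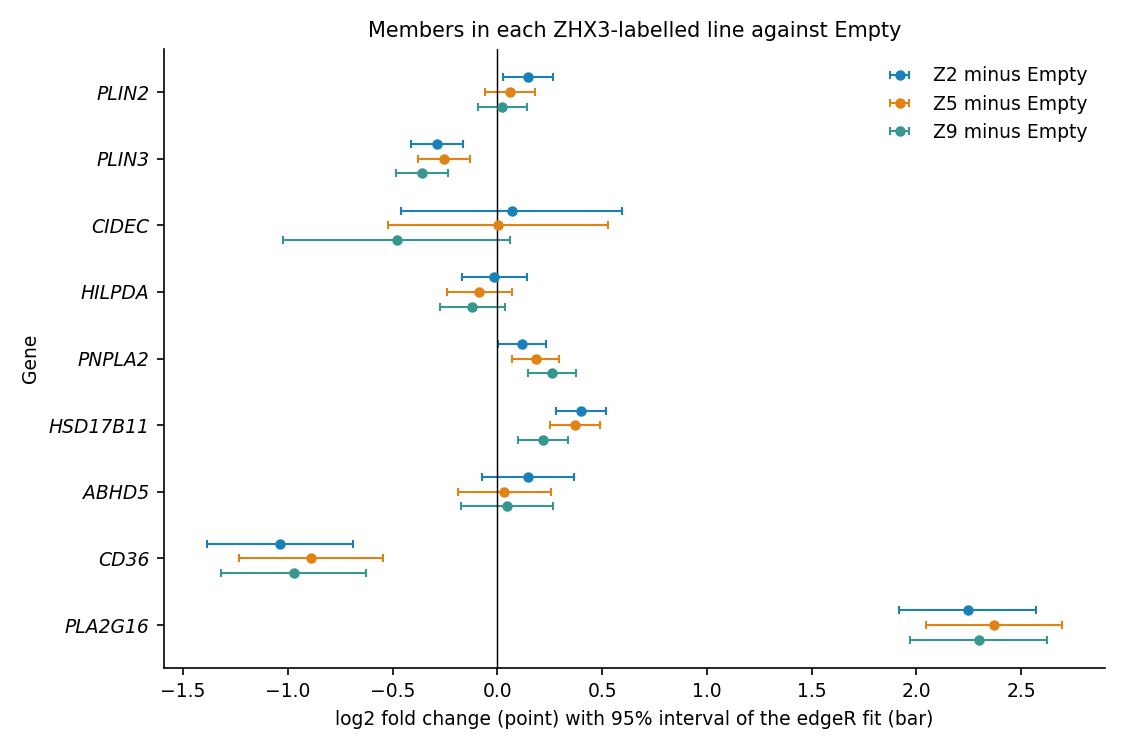
Log2 fold change of each tested member in Z2, Z5 and Z9 against Empty (points), with 95% intervals from the edgeR fit (bars), n = 3 wells per line. PLA2G16 lies near 2.3 and CD36 near -1 in all 3 lines. PLIN3 lies below 0 and HSD17B11 and PNPLA2 above 0 in all 3. CIDEC lies at -0.48 in Z9, with a wide interval that includes 0 (-1.02 to 0.060).

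In the edgeR fit, 4 of 9 members passed an adjusted p of 0.05 in Z2, 5 in Z5 and 5 in Z9. Over all 15289 genes the shares were 23.9%, 15.0% and 19.2%. With the 3 lines averaged, 5 of 9 passed, of which PLA2G16, HSD17B11 and PNPLA2 were higher and PLIN3 and CD36 lower, beside 25.6% of all genes (13.0% higher and 12.6% lower). The median log2 difference was 0.076 over the 9 members and 0.0029 over all genes tested. Wells of Empty and of the ZHX3-labelled lines did not overlap for PLA2G16 and HSD17B11, which were above Empty, and for PLIN3 and CD36, which were below; over all genes, 8.83% were above and 8.31% below in this way. These contrasts chose the members, so nothing is read from the counts. Without Empty well a, PNPLA2 left the count for the 3-line mean; for Z5 it also left without Empty well b, Z5 well b or Z5 well c, and HSD17B11 left the count for Z9 without Empty well a. PLIN2 joined the count for Z2, then 5, without Z2 well a and by DESeq2. With wells summed per line the count for the mean was 3 (PLA2G16, CD36 and PLIN3).

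Whether the members differed among the 3 ZHX3-labelled lines was tested. Their choice did not use differences among these lines, but it used PLA2G16 being higher and CD36 lower in the lines. For PLA2G16 and CD36 the test is therefore not independent of the choice. None of the 9 passed an adjusted p of 0.05 in edgeR's quasi-likelihood test of Z9 against Z2, Z9 against Z5 or Z5 against Z2. Over all genes, 5.17% passed in Z9 minus Z2 (1.96% higher and 3.21% lower), 1.52% in Z9 minus Z5 (0.432% higher and 1.09% lower) and 0.00654% in Z5 minus Z2. Leaving out a well of the uneven line Z2 moved the count over all genes in Z9 minus Z2 from 790 to 2399 (without Z2 well a), 216 (without b) or 316 (without c), and that of members to 2, 0 or 0. DESeq2 called 1, 0 and 0 members in these 3 comparisons, beside 1406, 471 and 9 of all genes. At an unadjusted p under 0.05 the members numbered 4, 1 and 0. No share over all genes is given at that threshold, so nothing is read from these numbers.

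HSD17B11 came nearest to a difference: it was lower in Z9 than in Z2 by 0.18 on the log2 scale (SE 0.056, 95% interval -0.30 to -0.063, edgeR adjusted p = 0.0678) and differed from Z5 by -0.15 (interval -0.27 to -0.033, adjusted p = 0.209). DESeq2 called the first of these (adjusted p = 0.0396), as did edgeR without Z2 well a (adjusted p = 0.0139). PNPLA2 was at 0.14 in Z9 minus Z2 (interval 0.031 to 0.26, edgeR adjusted p = 0.114) and PLIN2 at -0.12 (interval -0.24 to -0.0043, adjusted p = 0.193). Without Z2 well a, PLIN2 reached an edgeR adjusted p of 0.0493, at -0.17. CIDEC was at -0.55 in Z9 minus Z2 with the widest interval of the members, -1.09 to -0.0064 (edgeR adjusted p = 0.204). With the well letter added to the edgeR fit as a block, CIDEC (adjusted p = 0.0246) and HSD17B11 (adjusted p = 0.0421) were called in Z9 minus Z2. These 2 members thus depend on whether the letters pair the wells, which the labels do not say.

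For the members farthest from Empty, intervals of the differences between the 3 lines are given, and they reflect well-to-well spread only. PLA2G16 and CD36 were chosen for being higher and lower in these lines, so nothing is read from their likeness among them. For PLA2G16 the log2 difference was 0.051 in Z9 minus Z2 (95% interval -0.23 to 0.33), -0.072 in Z9 minus Z5 (-0.35 to 0.21) and 0.12 in Z5 minus Z2 (-0.16 to 0.40). For CD36, counted less often, the intervals were wider, at 0.067 in Z9 minus Z2 (-0.30 to 0.43), -0.084 in Z9 minus Z5 (-0.45 to 0.28) and 0.15 in Z5 minus Z2 (-0.22 to 0.52). PLIN3 differed by -0.071 in Z9 minus Z2 (-0.19 to 0.052) and by -0.10 in Z9 minus Z5 (-0.23 to 0.019). Missing the threshold does not show that the lines were equal.

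**Figure D3:**
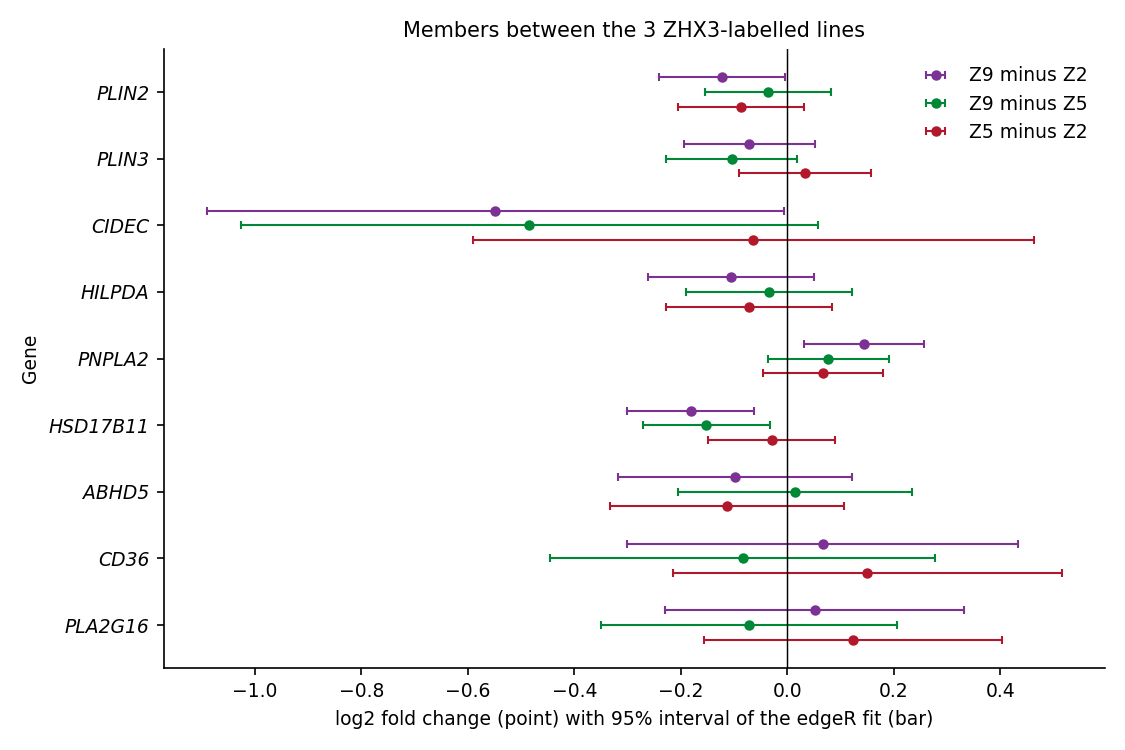
Log2 fold change of each tested member between the ZHX3-labelled lines (points), with 95% intervals from the edgeR fit (bars), n = 3 wells per line. The intervals of PLA2G16 and CD36 include 0 in all 3 comparisons, and CIDEC has the widest intervals.

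Levels of different genes were set side by side per kilobase of exon (CPM/kb), with the exons of all GENCODE 29 transcripts merged. In Empty, PLIN2 was highest at 162 ± 7.24 CPM/kb, rank 182 of 14681 genes over all libraries. PLIN3 followed at 56.9 ± 3.27, HSD17B11 at 43.3 ± 2.33 and PNPLA2 at 22.2 ± 0.978 CPM/kb. The lower members were HILPDA at 8.85 ± 0.755, CIDEC at 2.33 ± 0.377, ABHD5 at 1.08 ± 0.0632, PLA2G16 at 0.589 ± 0.0559 and CD36 at 0.514 ± 0.0348 CPM/kb. The wells of these last 2 overlapped, and the length of CD36, 10880 bases, merges many alternative exons and so lowers its value.

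The order changed in 2 places in the ZHX3-labelled lines. HSD17B11 stood above PLIN3, at 57.2 ± 3.50 against 46.6 ± 0.828 CPM/kb in Z2, 56.0 ± 1.93 against 47.7 ± 1.31 in Z5 and 50.4 ± 1.65 against 44.4 ± 3.40 in Z9, with no overlap of wells. PLA2G16, below ABHD5 in Empty, stood above it at 2.80 ± 0.107 CPM/kb in Z2, 3.05 ± 0.614 in Z5 and 2.90 ± 0.478 in Z9. These values overlapped those of CIDEC in Z2 (2.45 ± 0.600) and Z5 (2.34 ± 0.631) but not in Z9 (1.67 ± 0.517).

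Within the perilipin family, PLIN2 made up 73.1% ± 0.596 of the summed level per kilobase in Empty and 78.6% ± 0.932, 77.1% ± 0.293 and 77.9% ± 0.965 in Z2, Z5 and Z9. PLIN3 made up 25.7% ± 0.728, 20.5% ± 0.749, 21.8% ± 0.331 and 21.0% ± 1.05. PLIN4 took 0.386% to 0.812% of the sum per well, PLIN5 0.274% to 0.580% and PLIN1, the perilipin of fat cells, 0.0280% to 0.0907%.

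Genes with profiles most like those of PLA2G16 and CD36 were found by the smallest root mean square difference of centred log2 CPM over the 12 libraries. For PLA2G16 they were ABLIM3 (0.148), IGFBP2 (0.150), SDK1 (0.182), VCAN (0.220) and SLC19A3 (0.226). IGFBP2, a secreted binding protein for insulin-like growth factors, was at 6.50 CPM in Empty and at 36.4, 39.0 and 39.8 CPM in Z2, Z5 and Z9. VCAN, the matrix proteoglycan versican, was at 13.0 CPM in Empty and 58.6, 51.8 and 54.8 CPM in the 3 lines. For CD36 they were CES1 (0.158), UNC93A (0.191), ANXA4 (0.198), ATP2B2 (0.206) and ADAMTS13 (0.214). ANXA4, a calcium-dependent phospholipid-binding protein, was at 238 CPM in Empty and 111, 116 and 103 CPM in the 3 lines. Genes were picked for this likeness, so the values carry no test.

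The chromosomal neighbours of each member were read from the annotation as the 5 nearest tested genes on each side, with their mean difference of the 3 lines from Empty. Around PLIN3, 7 of 10 fell and 0 rose in the edgeR test, with a median of -0.28 and a range of -0.86 (UHRF1) to -0.11 (KDM4B), over 953 kb, where 12.6% of all genes fell. PLIN3 itself, at -0.30, lay close to that median. Around PLA2G16, 3 of 10 rose and 0 fell with a median of 0.057, the highest being SLC22A10 at 1.49, so PLA2G16 at 2.30 lay above all 10. Around CD36, 3 rose and 1 fell with a median of 0.12, and CD36 at -0.97 lay below all 10. Around HSD17B11, 2 rose and 2 fell with a median of -0.053. The position of PLIN3 among genes that fell together was not tested as a source of its value.

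**Figure D4:**
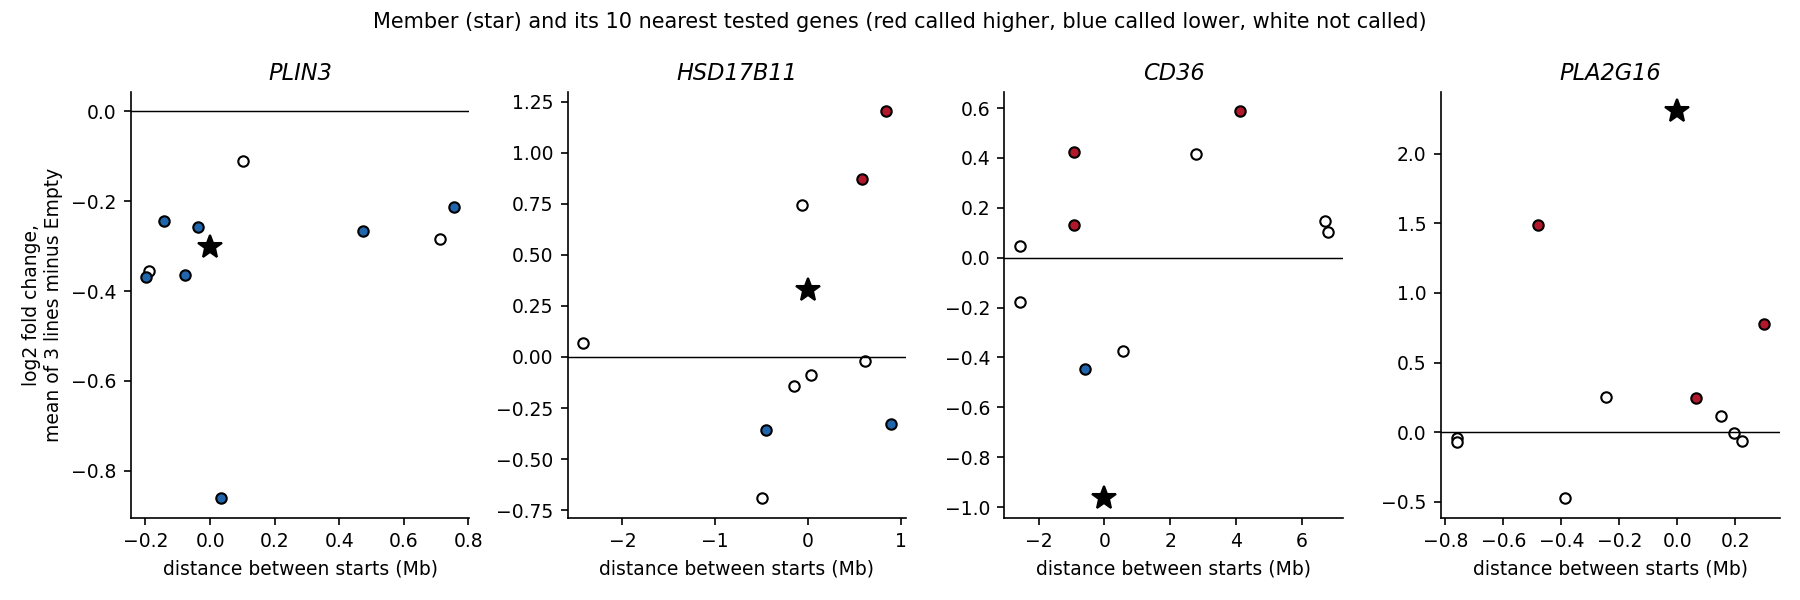
Log2 fold change of the mean of the 3 ZHX3-labelled lines minus Empty for 4 members (stars) and their 10 nearest tested genes (circles; red called higher, blue called lower and white not called in edgeR), against the distance between starts in Mb. All 10 neighbours of PLIN3 lie below 0, whereas PLA2G16 and CD36 lie outside the range of their neighbours.

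Other genes of droplet formation, lipid hydrolysis and fatty acid handling were taken as lists from general knowledge. Of 86 in the table, 73 were tested. For the mean of the 3 lines, 7 rose and 14 fell in edgeR's test, 28.8% of the 73 beside 25.6% of all genes, with a median log2 difference of -0.012 beside 0.0029. Without Empty well a the count was 15, and with wells summed per line it was 8, which were TMEM159, CES1, AADAC, FABP5, SLC27A1, PPARGC1A, PPARGC1B and CEBPA.

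Of the other coat and CIDE proteins, 3 of 4 were tested, 0 rose and 1 fell, with a median of -0.069. That was PLIN4, which fell from 10.1 ± 1.22 CPM in Empty to 7.37 ± 1.19, 8.60 ± 0.270 and 8.05 ± 0.0432 CPM in Z2, Z5 and Z9 (log2 -0.35, edgeR adjusted p = 0.00736), a call that ended without Empty well c (adjusted p = 0.0841). PLIN5, the perilipin of oxidative tissues, differed by -0.069 (SE 0.12) and PLIN1 by 0.27 (SE 0.30). CIDEA had 2 counts in all, both in Z9.

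Of the 16 genes of droplet formation, 1 rose and 3 fell, with a median of -0.013. TMEM159, whose protein promethin works with seipin where droplets form, rose by 0.59 (SE 0.10, edgeR adjusted p = 0.000503), from 4.35 ± 0.272 CPM in Empty to 6.66 ± 0.119, 6.41 ± 0.939 and 6.57 ± 1.02 CPM. PNPLA3, a droplet protein known for a variant linked to fatty liver, fell by 0.40 (SE 0.066, adjusted p = 0.000313). SPG20, which encodes spartin, fell by 0.29 (SE 0.062, adjusted p = 0.00273). METTL7A fell by 0.16 (SE 0.054, adjusted p = 0.0371), and leaving out Empty well a, Empty well c, Z5 well b, Z5 well c or Z9 well c ended that call (adjusted p from 0.0505 to 0.230).

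Among 14 tested genes of neutral lipid hydrolysis, 2 rose and 3 fell, with a median of 0.034. CES1, a carboxylesterase of the liver that hydrolyses lipid esters, fell by 0.91 (SE 0.077, edgeR adjusted p = 1.17e-06), from 114 ± 7.91 CPM in Empty to 53.1 ± 7.60, 63.8 ± 5.35 and 66.6 ± 6.24 CPM. AADAC, an esterase of the endoplasmic reticulum, fell by 0.82 (SE 0.20, adjusted p = 0.00529) at low levels of 1.19 ± 0.139 CPM in Empty and 0.643 to 0.716 CPM in the line means. LIPA, the acid lipase of lysosomes, fell by 0.21 (SE 0.044, adjusted p = 0.00234). PNPLA7, a lysophospholipase, rose by 0.30 (SE 0.11, adjusted p = 0.0480), and leaving out any Empty well, Z2 well a or c, Z5 well b or c or Z9 well a ended the call (adjusted p 0.0587 to 0.163). The lipases and inhibitor that act beside PNPLA2 in fat cells were scarcely counted. LIPE, hormone-sensitive lipase, had 1, 20, 13 and 9 counts over the wells of Empty, Z2, Z5 and Z9, MGLL, monoglyceride lipase, 0, 0, 5 and 1, and G0S2, the lipase inhibitor, 0, 2, 2 and 0.

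Beside CD36, 15 genes of fatty acid uptake, binding and activation were tested, of which 2 rose and 3 fell, with a median of 0.0068. SLC27A1, a fatty acid transport protein, rose by 0.47 (SE 0.069, edgeR adjusted p = 0.000102), from 10.4 ± 0.881 to 13.9 ± 1.12, 15.1 ± 0.822 and 14.3 ± 0.603 CPM. SCARB2, a lysosomal membrane protein of the CD36 family, rose by 0.24 (SE 0.049, adjusted p = 0.00179). FABP5, a fatty acid-binding protein, fell by 0.44 (SE 0.054, adjusted p = 1.17e-05), from 31.6 ± 1.53 to 23.5 ± 1.90, 23.2 ± 1.17 and 23.0 ± 0.402 CPM. DBI, the acyl-CoA-binding protein, fell by 0.27 (SE 0.068, adjusted p = 0.00972), and its call ended without Empty well a (adjusted p = 0.0643). FABP1, the liver form, varied between wells of Z2 from 170 to 386 CPM and differed by -0.14 (SE 0.22). For PLA2G16, the only tested gene of its list was PEX19, a peroxisomal import factor that PLA2G16 is known to bind, at -0.079.

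Of the 24 transcription factors and coactivators of droplet genes, 2 rose and 4 fell, with a median of -0.018. PPARGC1A, the coactivator PGC-1 alpha, rose by 0.50 (SE 0.077, edgeR adjusted p = 0.000181), from 26.7 ± 2.24 to 38.3 ± 2.89, 36.2 ± 1.64 and 39.1 ± 5.72 CPM. Its relative PPARGC1B fell by 0.58 (SE 0.093, adjusted p = 0.000199). CEBPA, a factor of hepatocyte and fat cell identity, fell by 0.59 (SE 0.12, adjusted p = 0.00574), from 114.5 ± 8.29 to 64.2 ± 16.5, 81.8 ± 7.49 and 83.4 ± 3.04 CPM. EPAS1, which encodes the hypoxia factor HIF-2 alpha, fell by 0.28 (SE 0.057, adjusted p = 0.00185). The other called genes were PPARG, which rose, and NFYA, a subunit of NF-Y, which fell. NFYA was at 78.8 ± 4.03 CPM in Empty and 70.0 ± 1.83, 71.4 ± 3.19 and 67.3 ± 0.358 CPM in Z2, Z5 and Z9. Both calls ended without Empty well a (edgeR adjusted p = 0.145 for PPARG and 0.0642 for NFYA).

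**Figure D5:**
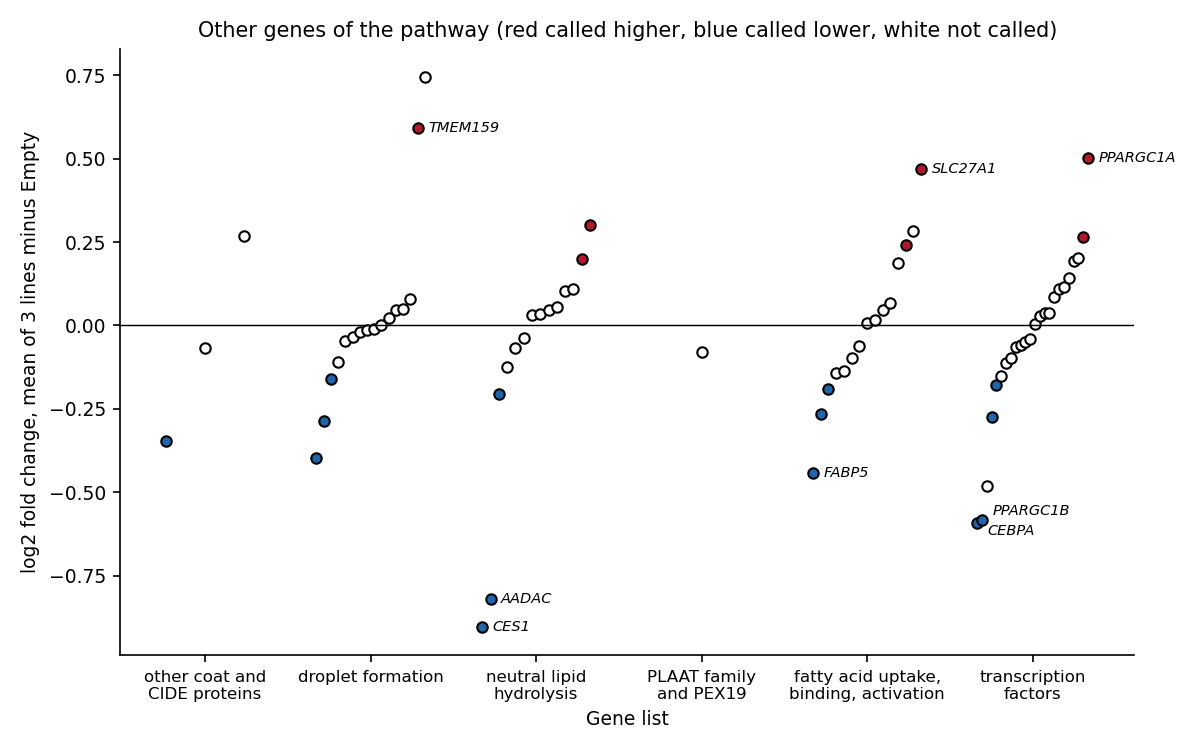
Log2 fold change of the mean of the 3 ZHX3-labelled lines minus Empty for the 73 tested genes of the 6 lists, members left out, ordered by size within each list; red circles were called higher, blue lower and white not called in edgeR. CES1 and AADAC are lowest, and names are given for called genes farthest from 0.

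Between the ZHX3-labelled lines, where no member passed in the main test, 8 of the 73 other genes did in Z9 minus Z2 (1 higher and 7 lower, 11.0%). In Z9 minus Z5, 4 passed (all lower, 5.48%). Over all genes the shares were 5.17% (1.96% higher and 3.21% lower) and 1.52% (0.432% higher and 1.09% lower). In Z5 minus Z2 the count was 0 by edgeR, beside 0.00654% of all genes. At an unadjusted p under 0.05 it was 9, and with no share over all genes at that threshold nothing is read from it. ACSL4, an acyl-CoA synthetase, was at 729 ± 66.2 CPM in Z2, 757 ± 48.2 in Z5 and 529 ± 24.4 in Z9 (log2 -0.46, edgeR adjusted p = 0.00285 against Z2, and -0.52, adjusted p = 0.00131 against Z5). ACSL3, the synthetase found on forming droplets, was lower in Z9 by 0.45 against Z2 (adjusted p = 0.00745) and by 0.41 against Z5 (adjusted p = 0.0124). PNPLA3 was lower in Z9 by 0.39 (adjusted p = 0.0231) and 0.60 (adjusted p = 0.00161), and LIPA by 0.27 (adjusted p = 0.0153) and 0.24 (adjusted p = 0.0317). PPARG, the nuclear receptor that directs fat storage, was at 84.0 ± 12.2 CPM in Z2 and 59.2 ± 1.20 CPM in Z9 (log2 -0.50, adjusted p = 0.0144). Its level was 59.7 ± 5.27 CPM in Empty and 74.3 ± 6.62 CPM in Z5, so Z9 lay near Empty. In Z2 minus Empty it was called higher (log2 0.49, edgeR adjusted p = 0.00186).

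ABHD6 (-0.39, edgeR adjusted p = 0.0498), LDAH (-0.22, adjusted p = 0.0335) and SLC27A4 (0.24, adjusted p = 0.0324) also differed between Z9 and Z2. SLC27A4 was at 49.9 ± 0.997 CPM in Empty, 44.1 ± 3.95 CPM in Z2 and 51.9 ± 0.291 CPM in Z9, so Z9 lay nearer to Empty than Z2 did. The count in Z9 minus Z2 ranged from 2 to 14 as single wells were left out: it was 2 without Z9 well a or b, 3 without Z9 well c, 5 without Z5 well b and 14 without Z2 well a. The calls of ACSL3 and ACSL4 against Z2 and of PNPLA3 and ACSL4 against Z5 held in every such fit. Against Z2, PPARG was lost without Z9 well a (adjusted p = 0.0554) or b (0.0645), LIPA without any 1 of the Z9 wells (0.0533 to 0.0617), and PNPLA3 without Z2 well c or any Z9 well (0.0607 to 0.0837). LDAH was lost without Z2 well b or c, Z5 well b or any Z9 well (adjusted p 0.0525 to 0.0990) and SLC27A4 without Z2 well b, Z5 well b or any Z9 well (0.0525 to 0.105). ABHD6 kept its call only without Z2 well a or Z5 well a (adjusted p 0.0550 to 0.183 otherwise). Against Z5, ACSL3 was lost without Z5 well b or c or Z9 well a or c (adjusted p 0.0595 to 0.107) and LIPA without Z5 well b or c or any Z9 well (0.0724 to 0.179). The count in Z9 minus Z5 was 2 without Z5 well b or c or Z9 well a or c, 8 without Z2 well a and 10 without Z2 well b.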

How the data were processed

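Members and lists were chosen with earlier results of these data known, and gene lists come from general knowledge. The authors deposited whole-number read counts per gene symbol for all 12 libraries. STAR, featureCounts and hg38 are named without versions, per the submitters' processing notes; nothing used here gives the annotation, the strand setting or how multi-mapping reads were treated. Samples were grouped by title.

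The test was edgeR 4.0.16 (R 4.3.3) on those counts, with filterByExpr, TMM scaling, a robust quasi-likelihood fit of 4 group means to all 12 libraries (8 residual degrees of freedom, common biological coefficient of variation 0.0696) and Benjamini-Hochberg adjustment over 15289 genes within each comparison. A gene was called at an adjusted p under 0.05, and its SE was derived from the F statistic. CPM use TMM-scaled library sizes, and 1 count is 0.0153 to 0.0196 CPM. The test was tested on simulated data. Library totals were 50864744 to 65428204 counts, and no pair of wells agreed within sampling noise.

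Symbols were matched to RefSeq GRCh38.p14 (23758 by current symbol, 1525 by a unique synonym) and GENCODE 29 (24487), which may differ from the annotation used for counting. Named genes were all 10 members, ZHX3, at most 4 called genes per list and comparison by size, and the 5 genes with profiles most like PLA2G16 and CD36. CDH5, PLIN1, PLIN5, FABP1, CIDEA, HSD17B13, VWF, PECAM1, LIPE, MGLL, G0S2, PEX19, NFYA, the other PLAAT genes, the markers, the genes sharing exons with members and the neighbours UHRF1, KDM4B and SLC22A10 are named outside that rule, after their values were seen. Alternatives were DESeq2 1.42.0 size factors, its Wald test, no filter beyond 1 count, 1 CPM in 3 libraries, the replicate block, fitting the compared groups alone, summing the wells of a line and leaving out each library.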

Additional observations from a re-analysis of the deposited data

How the results depend on the processing

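Each member's difference was recomputed under 18 settings per comparison, and none changed sign while called. With wells summed per line, which leaves 4 units, calls for the mean of the 3 lines fell from 5 to 3 members, from 21 to 8 list genes and from 3911 to 1016 of all genes. In Z9 minus Z2, where 0 members were called, DESeq2 called 1 and the replicate block called 2 (CIDEC, adjusted p = 0.0246, and HSD17B11, adjusted p = 0.0421); leaving out single wells gave 0 to 2. Against Empty, the replicate block added PLIN2 in Z2 (5 members) and CIDEC in Z9 (6 members). The labels do not say that a letter marks anything shared, and not every same-letter pair correlated. The main test therefore did not pair wells by letter, and any effect shared by a letter stays in its error. Of 18 same-letter pairs, 5 correlated over 0.1 (r -0.101 to 0.173), and 6 of 12 libraries correlated best with their own letter. The 6 pairs of wells a were all above 0 (0.0388 to 0.173).

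List genes called in Z9 minus Z2 numbered 8, and 2 with only the groups compared (2 to 14 without single wells). In Z9 minus Z5 they numbered 4, and 8 by DESeq2, 8 with the replicate block and 10 with only the groups compared (2 to 10). All genes called in Z9 minus Z2 numbered 790, and 1406 by DESeq2, 1512 with the replicate block and 32 with only the groups compared (75 to 2399). In Z9 minus Z5 they numbered 232, and 471, 488 and 664 under the same 3 settings (37 to 653). In Z5 minus Z2 they numbered 1, and 9 by DESeq2 (1 to 153). Against Empty they numbered 3654 in Z2, and 2390 with only the groups compared (2130 to 4411), 2286 in Z5 (1087 to 3267), 2941 in Z9 (1720 to 4048) and 3911 for the mean (2107 to 4787). The lowest counts came without Empty well a for Z2, Z9 and the mean and without Z5 well c for Z5. The causes were not tested. LIPE, MGLL, G0S2 and CIDEB had too few counts for a fold, and for CIDEB shared exons and depth cannot be told apart.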

Other observations

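CIDEC was lowest in well a of all 4 lines, at 3.75, 3.48, 3.39 and 2.31 CPM in Empty, Z2, Z5 and Z9. Of all genes tested, 862 (5.64%) had their lowest well a in all 4 lines. No reference for this share was computed, so it is not to be read as a background level. Every pair of wells a also correlated above 0 (r 0.0388 to 0.173), and whether wells a differed as a set was not tested. What the letters stand for is not given in the sources used here.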
